A study of Mus musculus and Homo sapiens with 12 samples.

Results

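The experiment compared blood stem cell-like cells of human origin in which DDX21 was knocked down with the same cells carrying a control hairpin. The cells were differentiated in culture from H1, an established human embryonic stem cell line, and transduced with lentivirus that carries a short hairpin RNA and the red fluorescent protein mCherry. Live cells positive for CD34, CD45, CD43 and the hairpin vector were sorted 2 days after transduction. The control group (shNC) and the knockdown group (shDDX21) had 3 libraries each, which are 6 of the 12 libraries of the series. The members were chosen by the sample labels alone, and all 78932 genes of the count table entered, of which 20188 passed the filter on low counts and were tested. Both groups share the H1 origin, the differentiation, the transduction and the sort. The labels name a single hairpin per arm, so the effect of lower DDX21 and any other effect of that hairpin cannot be told apart. Nothing in the labels ties the replicates to separate cultures, and p-values therefore measure only the spread between these 6 libraries, which may be technical.

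DDX21 encodes an RNA helicase of the DEAD-box family that sits mainly in the nucleolus. There it takes part in the transcription of ribosomal DNA and in the processing of ribosomal RNA, and in the nucleoplasm it binds the 7SK RNA complex that holds the elongation factor P-TEFb. Blood stem and progenitor cells divide and make ribosomes at a high rate during fetal development, and the stage modelled by pluripotent cell differentiation in culture resembles early blood formation from hemogenic endothelium.

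The libraries held between 15289510 and 19798608 counts. Levels are given below as CPM (counts scaled to a common library size, with edgeR's TMM factors), in the order of replicates 1, 2 and 3, with SD over 3 libraries, and differences as log2 fold changes of shDDX21 over shNC with their standard error (SE). A gene is called, and is said to have risen or fallen, at a Benjamini-Hochberg adjusted p under 0.05 in edgeR's quasi-likelihood test. Of the 20188 genes tested, 52.7% were called (25.3% up and 27.4% down), and the median log2 fold change over all of them was 0.0052. Adding a change of at least 2-fold to the rule left 7.18% (3.35% up and 3.83% down). All gene lists below hold only genes with a symbol in the deposited table. Of the 14883 such genes tested, 27.5% rose and 34.8% fell (median -0.035). Of the 5305 without a symbol, 19.1% rose and 6.41% fell. A list whose shares lie near those of genes with a symbol does not stand out. Replicates differed little (biological coefficient of variation 2.23%), so small shifts pass the test, and the size of each change is given beside every call. For single genes it is also stated below whether the 2 groups of libraries overlapped. The share of all genes whose groups did not overlap is not given here, so separation alone does not set a gene apart.

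The targeted gene fell in every knockdown library. DDX21 (chr10:68956135-68985068, plus strand, hg38) stood at 477, 465 and 468 CPM in shNC and at 68.6, 69.2 and 67.0 CPM in shDDX21. The 3 knockdown libraries were all far below the 3 controls and close to each other, at 14.5% of the control mean. On the log2 scale it changed by -2.78 (SE 0.029, adjusted p 1.33e-70). DDX50, the paralog that lies beside DDX21 on the same strand of chromosome 10, went from 59.0 to 53.3 CPM (log2 fold change -0.14). That call was lost with upper-quartile factors (adjusted p 0.17) and without shNC replicate 2 (adjusted p 0.078).

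The surface genes of the sort were present in both groups and moved in different directions. CD34, the sialomucin that marks early blood and endothelial cells, stood at 249.8, 245 and 251 CPM in shNC and 297, 296 and 299 in shDDX21. The groups did not overlap, and CD34 rose by 0.26 on the log2 scale. PTPRC, which encodes CD45, the pan-leukocyte phosphatase, went from 93.6, 94.9 and 96.3 to 66.0, 71.4 and 70.7 CPM. It was lower in all 3 knockdown libraries, with a log2 fold change of -0.45. SPN, which encodes CD43, rose from 691 to 883 CPM (0.35), and the stem cell factor receptor KIT rose from 170.2 to 186 CPM (0.13). Selection at the protein level does not fix these RNA levels, but it limits which cells could enter each group.

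The cells held RNA of several early blood fates beside the progenitor genes. RUNX1, the transcription factor that starts blood formation from endothelium, stood at 367 CPM in shNC, and the megakaryocyte integrin gene ITGA2B at 1351 CPM. The endothelial receptor KDR stood at 1007 CPM and PECAM1 at 327 CPM, while CDH5, which encodes the adhesion protein VE-cadherin, stood at 33.0 CPM. The embryonic globin gene HBZ had 261 CPM. The macrophage gene C1QA was low (3.07 CPM). Of the 12 genes listed for pluripotent cells, 4 had a symbol in the deposited table: DNMT3B (209.9 and 134 CPM in shNC and shDDX21), LIN28A (157 and 209), DPPA4 (75.7 and 73.9) and ZFP42 (11.1 and 4.71). The summed level of these 4 ranged from 439.7 to 462 CPM in shNC and from 413 to 429 in shDDX21. The other 8, POU5F1, NANOG and SOX2 among them, were not matched and were not analysed here.

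**Figure D1:**
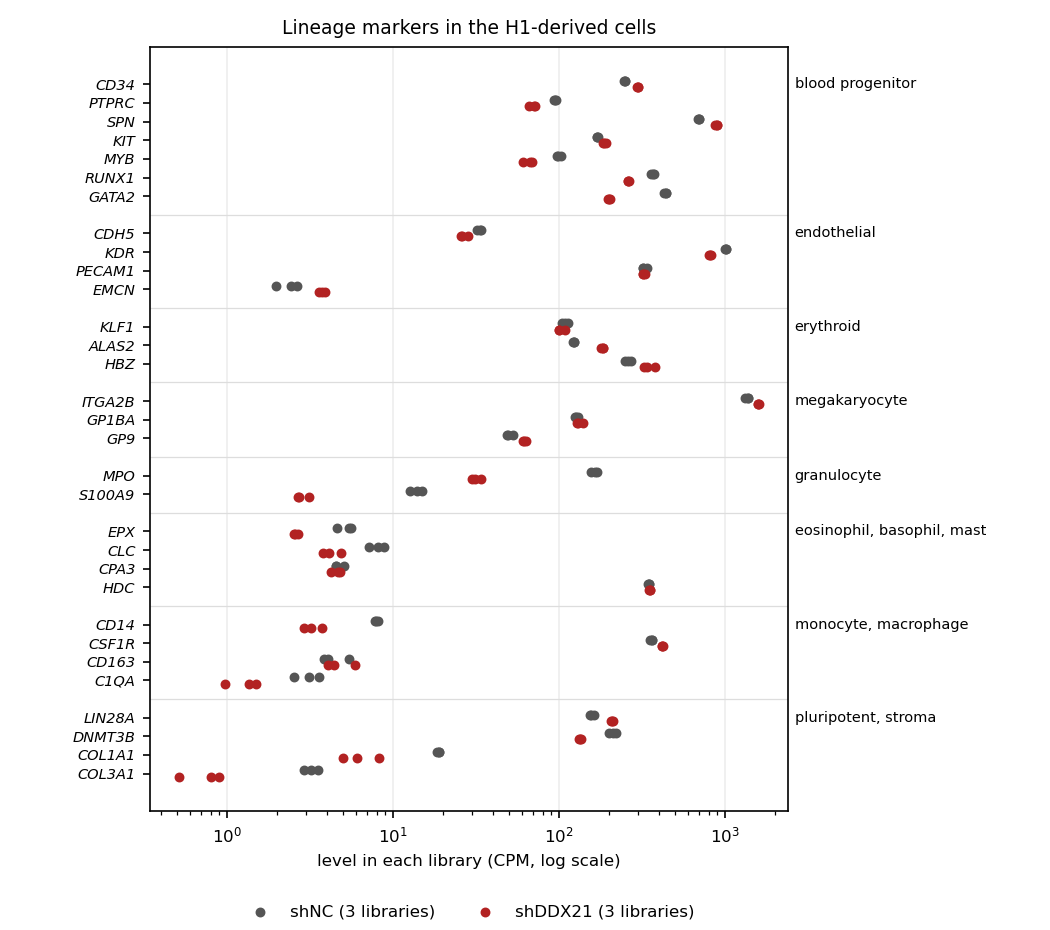
Levels of lineage markers in each library, in CPM on a log axis, with shNC in grey and shDDX21 in red and 1 point per library. CD34, SPN and ITGA2B sit to the right of the controls in the knockdown, whereas GATA2, MPO, CD14 and COL1A1 sit to the left.

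Of the genes that met the naming rule, those with the largest increases were KLF2 (log2 fold change 2.55), LGALS3BP (2.49), H2BC21 (2.21), H2BC7 (2.18), PCDH17 (2.13), H3C10 (1.97), H2AC13 (1.84), OR2AT4 (1.84), OAS1 (1.78) and SIGLEC1 (1.69). H2BC21, H2BC7, H3C10 and H2AC13 encode histones, and LGALS3BP, OAS1 and SIGLEC1 are known as interferon-responsive genes. KLF2 (chr19:16324826-16328685), a transcription factor that keeps lymphocytes and endothelium quiescent, had 1.69, 1.89 and 1.41 CPM in shNC and 9.96, 10.1 and 9.05 CPM in shDDX21. Its control level was low. The naming rule required groups that do not overlap, so the separation of these genes, and of the largest decreases below, was fixed by that rule. PCDH17, a protocadherin of the cell surface, went from 10.8 to 47.3 CPM.

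The 10 largest decreases under the same rule were IL1B (-3.08), CYP1B1 (-2.71), MPO (-2.36), IL7R (-2.32), CCL2 (-2.28), S100A9 (-2.27), BIRC3 (-2.27), SSR1 (-2.23), MMP9 (-2.14) and CCL3L3 (-2.12). Most encode secreted inflammatory mediators, granule proteins of myeloid cells or their regulators. CCL3L3 is a near-identical copy of CCL3, so its separate value is uncertain. SSR1 (chr6:7268306-7347446), a subunit of the translocon-associated protein complex of the endoplasmic reticulum, had 235, 238 and 243 CPM in shNC and 50.7, 51.0 and 51.0 in shDDX21. The knockdown libraries were uniformly low. The other subunits of that complex did not share this fall: SSR2 and SSR4 changed by 0.12 and 0.32, and SSR3 by -0.19, on the log2 scale.

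Genes of DNA replication fell together. Of the 51 genes listed for the replication fork, 47 were lower and 0 higher, against 34.8% and 27.5% of tested genes with a symbol. The median log2 fold change of the list was -0.66, against -0.035 for tested genes with a symbol. MCM6, a subunit of the helicase that opens the replication fork, went from 159, 163 and 167 CPM in shNC to 72.0, 69.8 and 72.4 in shDDX21. The 3 knockdown libraries were below the 3 controls (-1.19, SE 0.034). UHRF1, which brings the maintenance DNA methyltransferase to newly made DNA, fell from 138 to 56.8 CPM (-1.28). The largest falls in the list were those of WDHD1, an adaptor between helicase and polymerase (-1.57), and the helicase cofactor GINS2 (-1.46). The 4 members not called were ORC3, ORC4, ORC5 and RPA3, 3 of them subunits of the origin recognition complex. ORC5 was called lower with total counts (-0.22, adjusted p 0.042) and without shNC replicate 3 (-0.27, adjusted p 0.023).

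Nucleotide supply and DNA repair followed the same direction. All 24 of the 28 nucleotide synthesis genes that were called were lower (median -0.42). RRM1, the large subunit of ribonucleotide reductase, fell from 118 to 47.0 CPM (-1.33), and TK1 and DUT, which make and clean up thymidine nucleotides, changed by -1.12 and -1.12. Of the 34 genes listed for DNA repair and checkpoints, 28 were lower and 1 was higher, TP53BP1 (0.35). PARP1, which senses strand breaks, went from 352, 360.3 and 354 CPM to 179, 171 and 177 CPM. It was near 49.4% of control, with no overlap. BRCA1 and BRCA2, of homologous recombination, changed by -0.96 and -1.08. RBBP8, which encodes the end resection factor CtIP, belongs to none of the lists and was picked after its values were seen (42.5 to 10.5 CPM, log2 fold change -2.02).

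Mitotic genes fell as well. Of 58 members, 56 were lower and 0 higher, with a median of -0.76. A fall of at least 2-fold was seen in 14, against 626 of 14883 tested genes with a symbol. TOP2A, the topoisomerase that untangles sister chromatids, stood at 282, 279.5 and 290.5 CPM in shNC and 114, 112 and 111 in shDDX21. All knockdown libraries were below all controls. HMMR, a spindle protein, had the largest fall in the list (-1.67), followed by the kinetochore motor CENPE (-1.48). MKI67, which encodes the proliferation marker Ki-67, fell from 367 to 193 CPM (-0.92). In bulk libraries, fewer cells in a phase and less RNA per cell cannot be told apart, and this holds for every cell type and phase named here.

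The regulators of the cell cycle split. CDKN1A, which encodes the inhibitor p21, rose from 823, 835 and 785 to 1227, 1238 and 1215 CPM (0.59), with every knockdown library above every control. CDKN1B and CDKN1C, of the same inhibitor family, rose by 0.29 and 0.34, while CDKN2A and CDKN2C, of the other inhibitor family, changed by -1.08 and -1.13 from low levels. Among the cyclins of the G1 phase, CCND3 rose by 0.45, and CCNE1 and CCNE2 fell (-0.83 and -0.82). CDK6 fell from 229.9 to 148 CPM (-0.64), whereas its partner kinase CDK4 was not called (-0.01). In all, 6 of 28 regulators were higher and 15 lower.

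**Figure D2:**
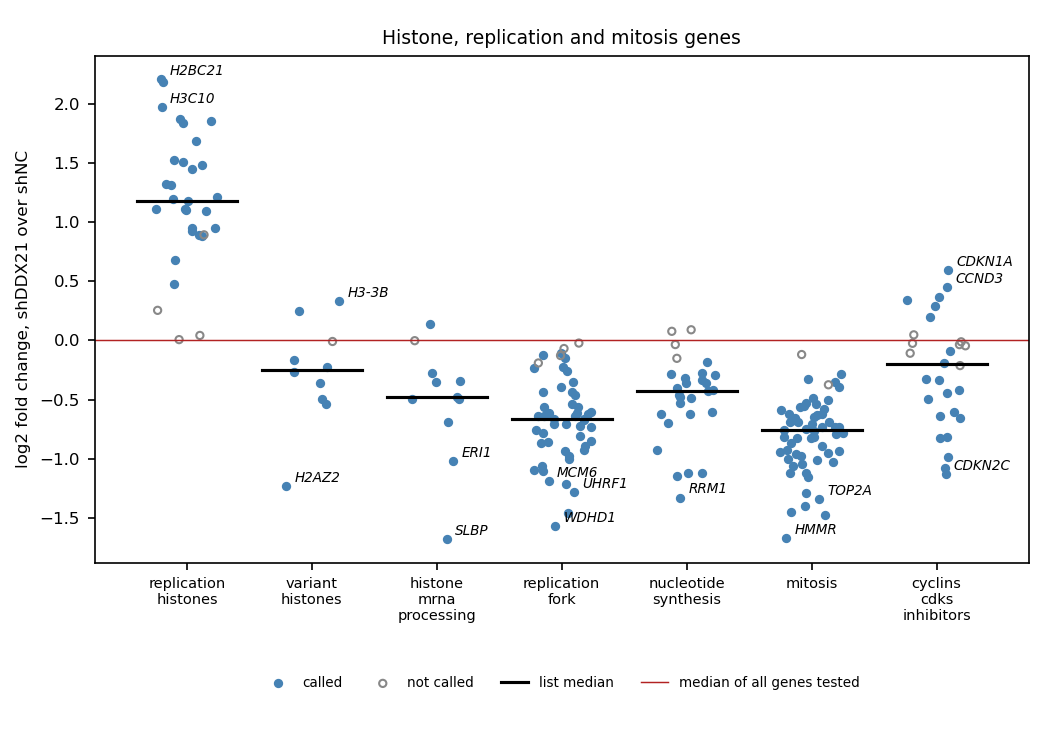
Log2 fold changes of single genes in 7 lists, with filled points for called genes, open points for genes not called, a black bar at each list's median and a red line at the median of all genes tested. Replication-dependent histone genes lie above the line (median 1.17) and replication fork and mitosis genes below it (-0.66 and -0.76).

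Histone genes of the replication-dependent clusters went against the rest of the S phase program. These genes are transcribed in S phase and their messages normally end in a stem-loop instead of a poly(A) tail, so a library of polyadenylated RNA holds only the part of them that carries a tail. Of 67 genes listed, 32 had a symbol in the table and 31 were tested. Among those, 27 were higher and 0 lower, 20 of them by at least 2-fold, with a median log2 fold change of 1.17. H2BC21 (chr1:149884459-149886682, on the chromosome 1 cluster) went from 18.5, 20.1 and 22.4 CPM to 90.9, 95.6 and 95.0 CPM. H1-2, a linker histone, went from 56.7, 54.6 and 54.8 to 136, 138 and 140.3 CPM. Both genes were higher in every knockdown library without overlap. The summed level of the list was 378 to 392 CPM in shNC and 889 to 901 CPM in shDDX21. Cluster members resemble each other closely, so the split between single genes is uncertain.

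Replacement histones, which carry ordinary tails and are made outside S phase, did not share this rise. Of 10 tested, 2 were higher, H3-3A (0.25) and H3-3B (0.33), and 7 lower. H2AZ2, a variant of H2A at promoters, fell from 221, 223 and 215 to 96.5, 94.0 and 89.7 CPM (-1.23). Factors that form the tail-less histone end were looked at after these values were seen. SLBP, which binds the stem-loop, stood at 81.2, 83.4 and 84.2 CPM in shNC and 26.0, 24.3 and 27.1 CPM in shDDX21. It averaged 31.1% of control and the groups did not overlap (-1.68, SE 0.050, adjusted p 4.56e-42). ERI1, the exonuclease that trims that end, changed by -1.02 and the cleavage factor subunit CPSF2 by -0.69. In the list of 11 such factors, 9 were lower and SYMPK was higher (0.13). Whether these falls bear on the histone levels was not tested.

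Interferon-stimulated genes rose. Of 48 listed, 46 were tested, and 43 were higher and 0 lower (median 0.80). A rise of at least 2-fold was seen in 13, against 321 of 14883 tested genes with a symbol. OAS1, which makes the oligoadenylate messenger that activates RNase L, went from 21.1, 18.5 and 22.6 to 68.9, 71.4 and 74.5 CPM, and the groups lay far apart. LGALS3BP, a secreted glycoprotein, went from 5.50, 5.35 and 5.06 to 30.2, 30.5 and 28.7 CPM. The antiviral effectors MX1, IFIT2 and ISG15 rose by 0.96, 1.37 and 1.16. The 3 members not called were IFITM2, IFITM3 and TRIM22. IFITM2 was called lower with total counts (-0.096, adjusted p 0.016) and with an offset for gene length (-0.16, adjusted p 8.39e-05). IFITM3 was called higher without shDDX21 replicate 2 (0.47, adjusted p 0.034) and TRIM22 with upper-quartile factors (0.10, adjusted p 0.047). No type I, II or III interferon gene of the list had a symbol in the table, so the ligands were not analysed here.

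Parts of the pathway above and below these genes moved less evenly. Among the receptors, IFNAR1, IFNAR2, IFNGR1 and IFNGR2 all fell, by 0.31, 0.31, 0.21 and 0.43 on the log2 scale. Among the sensors of foreign nucleic acid, RIGI, which detects double-stranded RNA ends, rose from 6.19 to 14.6 CPM (1.24), and IFIH1 rose by 0.46. CGAS, the sensor of DNA in the cytosol, moved the other way, from 21.9, 19.9 and 20.5 to 10.7, 11.3 and 10.7 CPM (-0.93). The groups did not overlap in either gene. AIM2 and IFI16, which also bind DNA, changed by -0.53 and -0.25. IRF7 rose by 1.02 and IRF2 by 0.74, and IRF5 and IRF8, factors of myeloid cells, fell (-0.95 and -1.22).

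Antigen presentation genes that were called rose, with 1 exception. In that list 15 of 25 were higher and 1 was lower (median 0.31). HLA-C rose by 0.47, the peptide transporter gene TAP1 by 0.79, and the immunoproteasome subunit PSMB8 went from 5.19, 7.31 and 6.92 to 14.4, 13.6 and 15.6 CPM. All PSMB8 knockdown values exceeded the controls. The lower gene was CIITA, the master regulator of class II (-0.44). HLA genes are highly variable between people and resemble each other, so their separate values are uncertain.

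**Figure D3:**
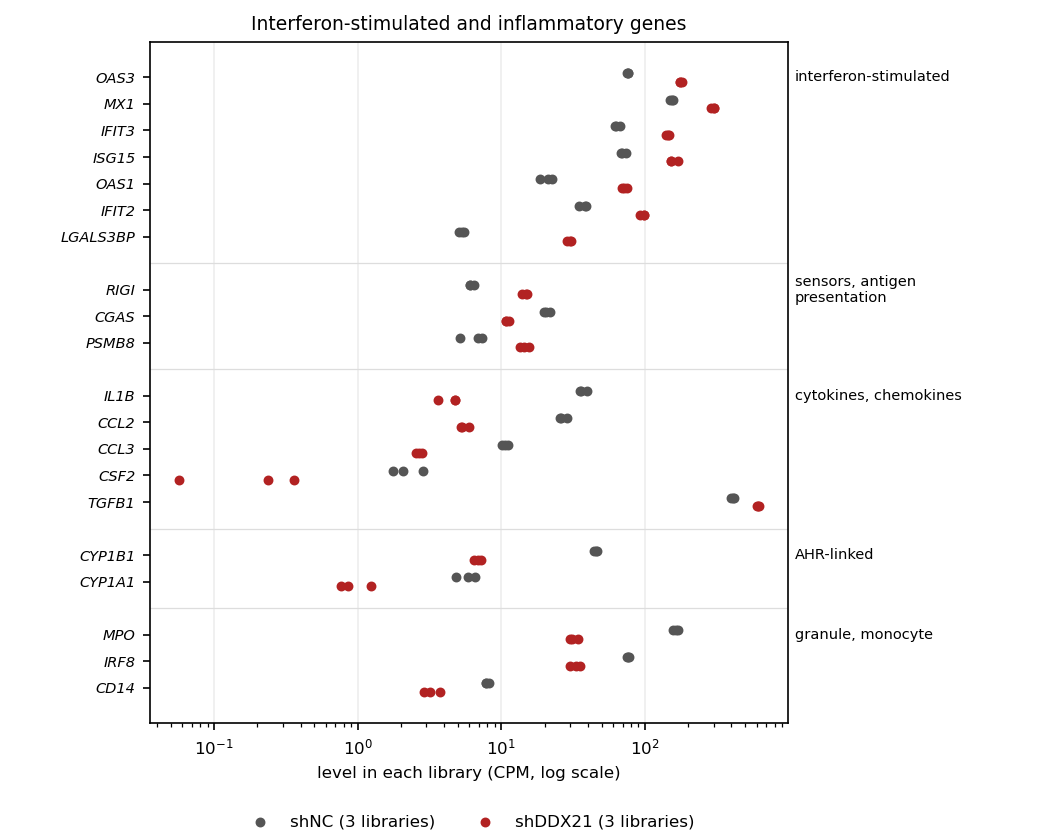
CPM in each library on a log axis for interferon-stimulated genes, sensors and antigen presentation genes, cytokines, AHR-linked genes and myeloid genes, with shNC in grey and shDDX21 in red. Red points lie to the right for OAS1, LGALS3BP and PSMB8 and to the left for CGAS, IL1B, CCL2, CYP1B1 and MPO.

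Inflammatory cytokines and chemokines fell. Of 35 listed, 23 were tested, 16 were lower and 4 higher (median -0.78), and 10 fell by at least 2-fold. IL1B (chr2:112829751-112836816), a fever-inducing cytokine, stood at 35.5, 39.8 and 36.0 CPM in shNC and 3.64, 4.74 and 4.78 in shDDX21. CCL2, a chemokine that draws monocytes, stood at 26.0, 28.6 and 25.7 and 5.95, 5.22 and 5.30 CPM. CSF2, which encodes GM-CSF, stood at 2.86, 1.76 and 2.08 and 0.359, 0.237 and 0.0569 CPM. In all of them each knockdown library was several-fold below each control, and CSF2 was scarce in both groups. The 4 that rose were TGFB1 (407 to 612 CPM, 0.59), IL18 (0.49), CCL22 (0.62) and CXCL6 (0.43, not called without shNC replicate 3, adjusted p 0.060). The summed level of the list was 756 to 776 CPM in shNC and, higher, 837 to 842 CPM in shDDX21, where TGFB1, its most abundant member, made up most of it. IL1RN, the natural antagonist of IL1B, fell with it (-1.30). Among the feedback genes of NF-kB, the factor that drives many of these cytokines, 8 of 19 were lower and 3 higher (median -0.11). These were 42.1% and 15.8%, against 34.8% and 27.5% of tested genes with a symbol. BIRC3 fell by 2.27, whereas TNFAIP3 fell by 0.38.

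Myeloid effector genes fell. Of 19 granulocyte genes listed, 8 had a symbol and were tested, and all 8 were lower (median -1.83). MPO, the peroxidase of primary granules, went from 164, 169 and 156 to 34.0, 30.9 and 30.0 CPM, a clear gap between groups. CSF3R, the receptor of G-CSF, changed only by -0.25. The median of this list was -0.997 among the members with at least 10 counts in every library, where S100A8 and FCN1, which are scarce, drop out. Of the monocyte and macrophage list, 17 of 27 were lower and 5 higher (median -0.46). IRF8 went from 76.6, 77.4 and 75.5 to 33.2, 35.4 and 30.1 CPM and CD14 from 8.15, 7.77 and 7.88 to 3.75, 2.90 and 3.19 CPM, without overlap. CSF1R (0.22), TYROBP (0.63), FCER1G (0.53), CX3CR1 (0.29) and VSIG4 (0.25) rose. VSIG4 was not called in 7 of the alternatives, among them DESeq2 (adjusted p 0.11) and leaving out shNC replicate 1, shNC replicate 2 or shDDX21 replicate 2 (adjusted p 0.086, 0.11 and 0.15). The summed level of the granulocyte list was 378 to 393 CPM in shNC and 191 to 198 in shDDX21, and that of the monocyte and macrophage list was 1122 to 1137 and 1064 to 1079. The part of a change in cell mixture in the cytokine falls was not tested.

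Eosinophil, basophil and mast cell genes had 8 lower and 0 higher of 15 (median -0.47). PRG3, an eosinophil granule protein, fell by 1.41 on the log2 scale, and HDC, which makes histamine and was the most abundant of the list, was not called (347 and 351 CPM). HDC was called higher with upper-quartile factors (0.086, adjusted p 0.0011). Of 26 lymphoid genes listed, 14 had a symbol and were tested. Of these 6 were lower and CD2 was higher (0.79), or 42.9% and 7.14%, against 34.8% and 27.5% of tested genes with a symbol. IL7R, the receptor of interleukin 7, was one of the lower ones, with 28.8, 28.5 and 30.4 CPM in shNC and 5.95, 5.93 and 5.64 in shDDX21. In dendritic cell genes 4 of 9 were higher and 2 lower (44.4% and 22.2%, against 27.5% and 34.8%), IRF4 among the lower (-1.62).

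Transcription factors of blood stem and progenitor cells fell more often than they rose. Of 34 listed, 28 had a symbol and were tested, and of these 18 were lower and 7 higher (median -0.27). GATA2, needed for the emergence and upkeep of stem cells, went from 426, 439.9 and 438 to 196, 202 and 201 CPM. It averaged 45.9% of control, with the groups far apart (-1.12, SE 0.025, adjusted p 1.31e-49). ERG, an ETS factor of stem cells and endothelium, went from 35.1, 34.0 and 36.1 to 13.1, 13.8 and 14.8 CPM. RUNX1, MYB and LMO2 changed by -0.48, -0.61 and -0.77, and the myeloid factors GFI1 and CEBPA by -1.93 and -1.29. TAL1, which acts in the same protein complex as LMO2 and GATA factors, rose from 673, 679 and 675 to 992, 981 and 974 CPM (0.54), and MEIS1 and FLI1 rose by 0.24 and 0.19. Genes of partners in 1 complex thus moved in opposite directions.

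Genes for surface proteins of stem and progenitor cells went both ways, with 8 higher and 8 lower of 21. These were 38.1% each, against 27.5% and 34.8% of tested genes with a symbol. ITGA4, the integrin subunit by which progenitors hold on to stroma, stood at 95.9, 97.8 and 94.5 CPM in shNC and 29.4, 30.9 and 27.2 in shDDX21, and ANGPT1, the ligand of TEK, fell from 72.9 to 27.3 CPM (-1.42). TEK itself rose from 84.6 to 129 CPM (0.61), as did the homing receptor CXCR4 (0.75) and PROCR (0.38). ADGRG1, also called GPR56, fell by 1.09. In the wider list of adhesion and migration genes 14 of 23 were lower and 7 higher (median -0.47). CD44, the hyaluronan receptor, fell by 0.80, and ITGA5 and SELPLG rose by 0.77 and 0.55. Of the cytokine receptors, 17 of 27 were lower, IL4R (-1.12) and IL1RAP (-1.58) among them, and 4 were higher, EPOR (0.64), CSF1R (0.22) and KIT (0.13) among them.

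Erythroid genes rose in most cases. Of 23 tested, 16 were higher and 4 lower (median 0.37). ALAS2, which starts heme synthesis in red cells, went from 123, 123 and 122 to 179.8, 184 and 184 CPM. SLC25A37, the mitochondrial iron importer, went from 397, 395 and 385 to 589.9, 614 and 598 CPM. In both, all knockdown libraries exceeded all controls. GATA1 rose by 0.37 and the erythropoietin receptor gene EPOR by 0.64, whereas KLF1 missed the call (-0.08, adjusted p 0.0576, and a fall past the threshold in 5 alternatives) and RHAG and CD36 fell (-0.34 and -1.24). AHSP, the chaperone of alpha globin, was scarce (0.531 to 2.13 CPM, 2.02). The summed level of the list was 2587 to 2623 CPM in shNC and 3299.6 to 3353 in shDDX21.

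Of 10 globin genes listed, 6 had a symbol, and 5 of these were higher. HBZ, the embryonic zeta globin, was the most abundant of them, at 272, 261 and 249 CPM in shNC and 337, 327 and 376 CPM in shDDX21 (0.41). HBD, HBM, HBQ1 and HBA2 rose by 0.66, 1.10, 0.85 and 1.03, and HBB was near 1 CPM in both groups and not called. HBE1, HBG1, HBG2 and HBA1 were not matched, so the main embryonic and fetal beta-like globins were not analysed here. Heme and iron genes split evenly, 10 higher and 11 lower of 22. TFRC, the transferrin receptor, fell from 1128, 1132 and 1131 to 657, 645 and 667 CPM, while the ferritin light chain gene FTL and the heme oxygenase gene HMOX1 rose by 0.33 and 0.85. The groups of TFRC lay apart (-0.78).

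Of 23 megakaryocyte genes listed, 19 had a symbol and were tested, and PF4 was among those not matched. Of the 19, 5 were higher and 9 lower (26.3% and 47.4%, against 27.5% and 34.8% of tested genes with a symbol). ITGA2B, which encodes CD41, rose from 1369.8, 1370.2 and 1313 to 1586, 1570.3 and 1590.3 CPM, and its partner ITGB3 fell from 308, 314 and 303 to 210.1, 216 and 208 CPM. The 2 chains of that integrin thus moved apart, by 0.23 and -0.55 on the log2 scale. RAB27B, of platelet granule release, fell by 1.01. Endothelial genes had 11 lower and 5 higher of 21 (median -0.31). FLT1, a receptor of vascular growth factor, went from 93.4, 94.8 and 96.6 to 32.6, 29.3 and 31.3 CPM, PLVAP changed by -1.15 and EGFL7 by -0.55. The defining markers changed less: KDR by -0.31, CDH5 by -0.31, and PECAM1 was not called (-0.01). With upper-quartile factors PECAM1 was called higher (0.058, adjusted p 0.037). Of 6 stromal genes tested, COL1A1 (18.7 to 6.44 CPM) and COL3A1 (3.21 to 0.733 CPM) fell and COL1A2 (84.8 to 115 CPM) rose.

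**Figure D4:**
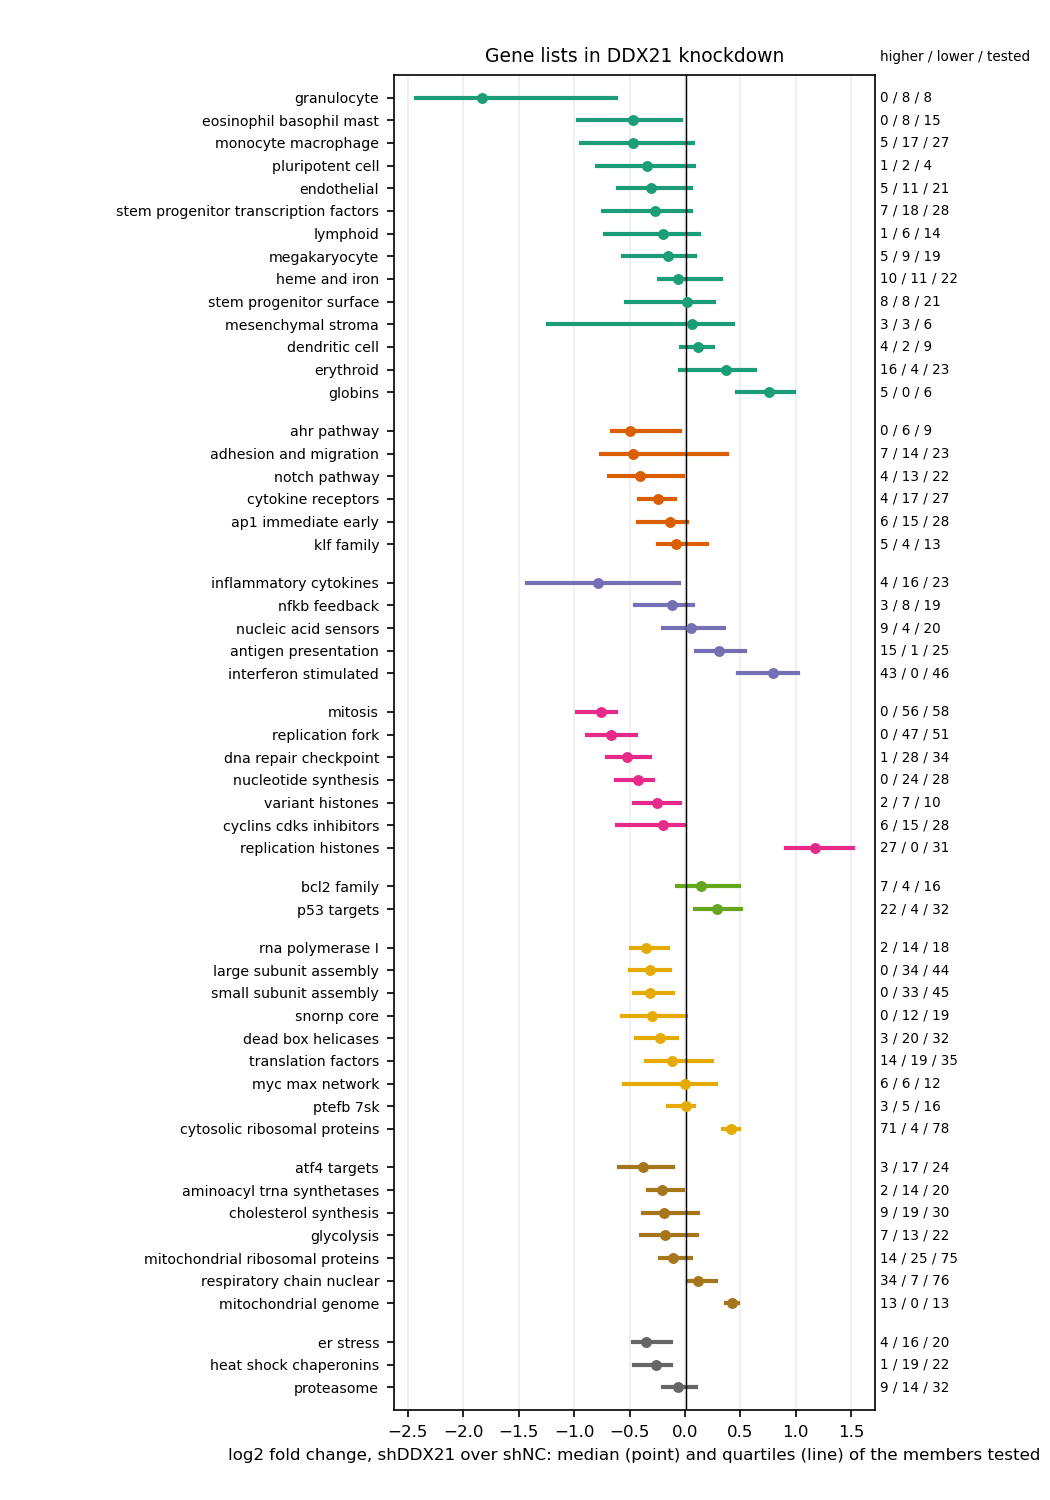
Median (point) and quartiles (line) of the log2 fold changes in each gene list with at least 3 members tested, coloured by theme, with the counts of members higher, lower and tested at the right and the median of all genes as a black line. Interferon-stimulated and replication-dependent histone genes lie farthest to the right and granulocyte, cytokine, mitosis and replication genes farthest to the left.

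Genes that build ribosomes in the nucleolus, where DDX21 acts, fell by moderate amounts. Of 18 genes of the RNA polymerase I machinery 14 were lower and 2 higher (median -0.35). TCOF1, which links polymerase I transcription to processing, went from 160.2, 160.1 and 158 to 95.9, 99.2 and 95.0 CPM. All knockdown libraries were lower (-0.72). POLR1A and POLR1B, the largest subunits, changed by -0.37 and -0.58. In the small subunit processome and its partners 33 of 45 were lower and none higher (median -0.31), led in size by UTP20 (-0.85). In large subunit assembly 34 of 44 were lower and none higher (median -0.32), with MAK16 and BRIX1 at -1.06 and -0.95. GTF3A, the factor that starts transcription of 5S ribosomal RNA by polymerase III, is in none of the lists and was picked after its values were seen. It stood at 97.0, 97.3 and 90.1 CPM in shNC and 24.1, 24.2 and 23.5 CPM in shDDX21, with the groups far apart (-1.98, SE 0.049).

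The list for small nucleolar particles, which modify ribosomal RNA, also leaned lower, though not every member was called. Of the 19 genes in that list 12 were lower and none higher (median -0.29). NCL, the abundant nucleolar protein nucleolin, went from 1395, 1401 and 1409 to 915, 896 and 886 CPM and NOP56 from 257, 261 and 263 to 150.3, 148 and 142 CPM. FBL, the methyltransferase that works in the same particle as NOP56, was not called (156, 152 and 159.7 CPM in shNC and 165, 155 and 154 in shDDX21), and its groups overlapped. With upper-quartile factors FBL was called higher (0.089, adjusted p 0.011). DKC1, the pseudouridine synthase of the other particle class, fell by 0.51. Of the other DEAD-box helicases 20 of 32 were lower and 3 higher. DDX1 fell by 1.07, DDX18, which works in large subunit assembly, by 0.83, and DDX5 by 0.55, while its close relative DDX17 rose by 0.25.

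The partners of DDX21 at 7SK and P-TEFb were mixed, with none at 2-fold. Of 16 genes 3 were higher and 5 lower (median 0.01), or 18.75% and 31.25%, against 27.5% and 34.8% of tested genes with a symbol. With upper-quartile factors 6 were higher and 5 lower, and the median, close to 0, changed sign with total counts (-0.023). CDK9, the kinase of P-TEFb, stood at 111, 111 and 107 CPM in shNC and 116, 102 and 106 in shDDX21, and was not called (-0.03). LARP7 and MEPCE, which stabilise the 7SK RNA, fell by 0.53 and 0.37. MYC, which drives ribosome production in growing cells, fell from 202, 201 and 196 to 86.9, 88.0 and 91.1 CPM (-1.17, SE 0.032), with no overlap. Its partner MAX and the opposing factors MXI1 and MXD4 rose by 0.24, 0.54 and 0.39. In the whole MYC and MAX list, 6 of 12 were higher and 6 lower (median 0.0035).

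Messages of the ribosomal proteins themselves went the other way. Of 78 tested 71 were higher and 4 lower, with a narrow spread (median 0.41, quartiles 0.34 and 0.49) and none at 2-fold. RPS27 had the largest rise, from 92.4, 102 and 98.2 to 185, 180.0 and 148 CPM. The 4 that fell were RPL17 (48.2 to 24.4 CPM, -0.98), RPL22 (-0.33), RPL26 (-0.20) and RPL4 (-0.15). RPL26 was not called with DESeq2 (adjusted p 0.065), with upper-quartile factors (0.12) or without shNC replicate 2, shDDX21 replicate 1 or shDDX21 replicate 2 (0.053, 0.077 and 0.068). EEF2 and EEF1A1, the elongation factors of translation, both rose (0.43 and 0.34). Per kilobase of exon, they were among the 4 highest genes with a symbol outside the mitochondrial genome in shNC. Translation factors as a whole split into 14 higher and 19 lower of 35. EIF4G2 and EIF5B, of initiation, fell from 1301, 1337 and 1331 to 644, 631 and 645 CPM and by 1.01 on the log2 scale, and EIF3F and EIF3K, subunits of a large initiation complex, rose by 0.48 and 0.49. Ribosomal protein genes have many processed copies in the genome, so their separate values are uncertain.

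**Figure D5:**
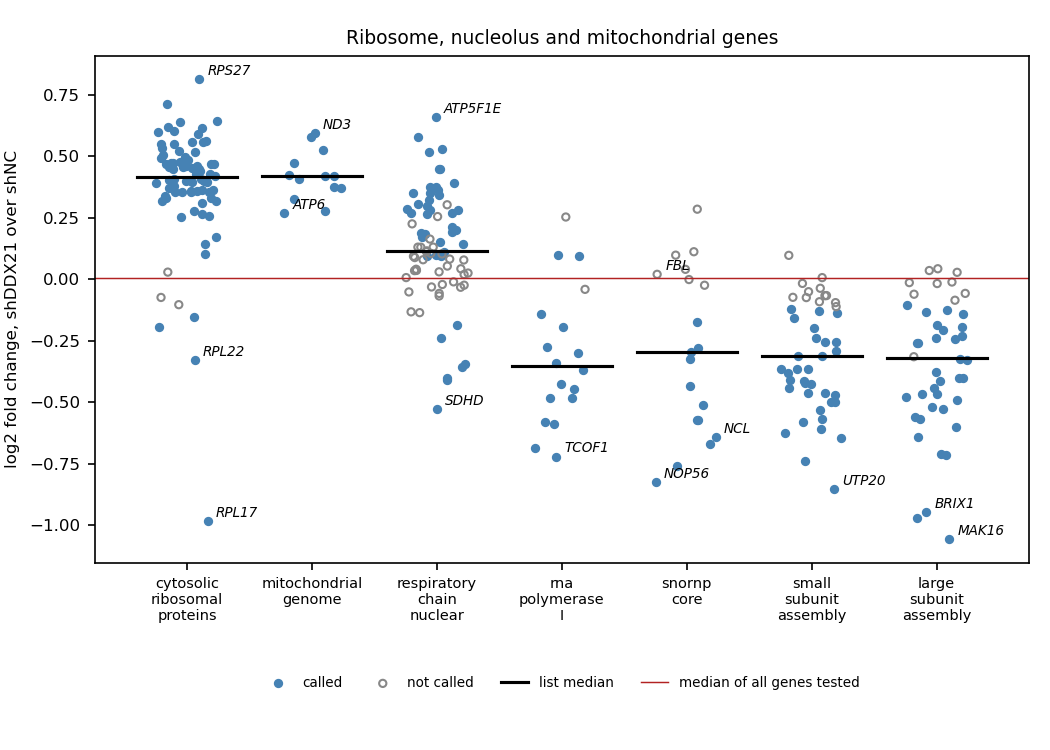
Log2 fold changes of single genes in 7 lists, with filled points for called genes, open points for genes not called and a black bar at each median. Cytosolic ribosomal protein and mitochondrial genome messages lie above the red line at the median of all genes (0.41 and 0.42), and polymerase I and subunit assembly genes below it.

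All 13 messages of the mitochondrial genome rose (median 0.42, range 0.27 to 0.59). COX1, a subunit of cytochrome oxidase, went from 14715, 15079 and 14546 to 19967, 19667 and 19749 CPM and ND4 from 8106, 8373 and 8066 to 10994, 10926 and 10965 CPM, without overlap. The mitochondrial genome held 8.59% to 8.65% of all counts in shNC and 11.2% to 11.4% in shDDX21. The part of this shift in other results was not tested beyond the scaling alternatives. With an offset for gene length the median of this list was 0.25, still higher in 13 of 13. The nuclear genes of the respiratory chain had 34 higher and 7 lower of 76 (median 0.11; 51 higher, 6 lower and a median of 0.18 with upper-quartile factors), with the cytochrome oxidase subunit COX7C at 0.45 and the succinate dehydrogenase subunit SDHD at -0.53. Mitochondrial ribosomal proteins had 14 higher and 25 lower of 75 (18.7% and 33.3%, against 27.5% and 34.8% of tested genes with a symbol). MRPL50 alone was beyond 2-fold (30.4 to 10.7 CPM, -1.49). Short genes leaned upwards in this comparison: of 10 equal groups by total exon length, the shortest had a median log2 fold change of 0.17 and the longest -0.053.

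Glycolysis genes fell in 13 of 22 cases and rose in 7. HK2, the inducible hexokinase, went from 145, 143 and 147 to 64.6, 64.0 and 67.5 CPM, and the pyruvate kinase gene PKM from 884, 879 and 856 to 517, 520.0 and 519 CPM. Both were lower in all knockdown libraries. LDHA and ENO1 fell by 0.73 and 0.51, whereas the glucose transporter gene SLC2A3 and PFKM rose by 0.36 and 0.48. Sterol and fatty acid synthesis genes had 19 lower and 9 higher of 30. Targets of the stress factor ATF4 had 17 lower and 3 higher of 24 (median -0.38). PHGDH and PSAT1, of serine synthesis, fell by 1.09 and 1.07, while ATF4 itself rose by 0.39. Aminoacyl-tRNA synthetase genes had 14 lower and 2 higher of 20.

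Chaperones fell with few exceptions. Of the heat shock and chaperonin genes 19 of 22 were lower and 1 was higher, HSPB1 (0.19). HSPB1 was not called with DESeq2 (adjusted p 0.051) or without shNC replicate 1 or 3 (0.073 and 0.063). HSP90AA1, the inducible cytosolic chaperone of many kinases, went from 1294, 1303 and 1303 to 772, 777 and 771 CPM, with every knockdown library below every control. Of the endoplasmic reticulum chaperones and stress genes 16 of 20 were lower and 4 higher (median -0.35). HYOU1 and PDIA6, which fold secreted proteins, fell by 0.95 and 0.76, and ERN1, the sensor of that stress, rose by 0.51. The proteasome had 9 higher and 14 lower of 32 (28.1% and 43.8%, against 27.5% and 34.8% of tested genes with a symbol). PSMA7, a core subunit, was the exception in size, from 142, 157 and 144 to 69.3, 75.1 and 71.5 CPM (-1.04). Other subunits of the same ring, PSMA4 and PSMA5, changed by -0.22 and 0.12.

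Targets of p53 rose modestly. Of 32 tested 22 were higher and 4 lower (median 0.29), and 1 reached a 2-fold rise. That gene was PURPL, a long noncoding RNA, with 541, 525 and 536 CPM in shNC and 1142, 1160.1 and 1151 CPM in shDDX21. CCNG1 went from 369, 380.1 and 372 to 635, 658 and 652 CPM, again with all knockdown libraries higher. MDM2, which marks p53 for degradation, rose by 0.28, and the death genes BAX and BBC3 by 0.41 and 0.57. BTG2, TNFRSF10B, PPM1D and TIGAR fell (-0.62, -0.26, -0.15 and -0.51). PPM1D was not called in 7 alternatives, DESeq2 (adjusted p 0.10) and 4 of the 6 that leave out a library (0.051 to 0.090) among them. Within the BCL2 family the protective gene BCL2L1 rose from 290.4 to 451 CPM (0.64), while BCL2 fell from 7.20, 6.33 and 6.25 to 1.39, 1.60 and 1.31 CPM (-2.20). The killers BAK1 and BMF rose by 0.84 and 0.63.

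Among signalling pathways, genes linked to the aryl hydrocarbon receptor fell in 6 of 9 cases and rose in none. CYP1B1, an oxidising enzyme that the receptor induces, stood at 43.9, 45.4 and 46.2 CPM in shNC and 6.93, 7.23 and 6.49 in shDDX21. CYP1A1 stood at 4.82, 6.59 and 5.85 and 1.23, 0.771 and 0.854 CPM. In both genes every knockdown library was several-fold below every control. The receptor AHR missed the call (0.12, adjusted p 0.054), with a rise past the threshold in 7 alternatives. Its partner ARNT fell by 0.66. Notch pathway genes had 13 lower and 4 higher of 22 (median -0.41), with the receptor NOTCH3 at -1.20, the DNA-binding partner RBPJ at -0.62 and the target HES1 at -0.68. Of the AP-1 and immediate early genes 15 of 28 were lower and 6 higher. EGR1 and JUNB fell by 0.42 and 0.45, and JUN rose by 0.57. Of 13 KLF genes 5 were higher and 4 lower (38.5% and 30.8%, against 27.5% and 34.8% of tested genes with a symbol). KLF15 (-1.77) moved opposite to KLF2.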

How the data were processed

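Polyadenylated RNA of 6 libraries was analysed, 3 per group. The deposited table holds gene positions, exon lengths and whole-number read counts, which the authors made with STAR and featureCounts on hg38, per the submitters' processing notes; versions, strand setting and the treatment of reads shared by genes are not given in the sources used here, so values of overlapping genes and close copies are uncertain. The authors' second deposited table, of normalized signal and its log2 ratio to the control mean, was used for gene symbols only: it pairs 14931 genes with a symbol, which hold 94.6% of the counts, and its signal was checked to equal the count over 1 constant per library (largest relative deviation 4.97e-10).

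The test was that of edgeR 4.0.16 under R 4.3.3 (filterByExpr, TMM, glmQLFit and glmQLFTest, two-sided, group only, Benjamini-Hochberg adjustment over 20188 genes). The SE was taken as the size of the log2 change divided by the root of its F statistic. Library pairs within a group differed by a chi-square of 1.60 to 1.85 per degree of freedom, above sampling noise, and were kept separate. The smallest two-sided p of an exact permutation test of 3 against 3 is 0.1, and calls of single genes therefore come from the model across all genes. On simulated data, 91 of 91 genes changed by 2-fold and 109 of 109 changed by 4-fold (each with a mean of at least 50 counts) were called. There were 9 false calls among 19691 genes tested there. The simulation changed only 200 genes, so it covers neither changes under 2-fold nor a comparison in which 52.7% of genes are called.

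Genes were named by rule: DDX21 and the 10 largest increases and 10 largest decreases among called genes. Those increases and decreases needed a mean of at least 5 CPM, no overlap of groups and a symbol that is no uncharacterised locus. Pseudogenes were not filtered out. The rule also took the 4 members of each list with the smallest p and its most abundant member. It further took all globin and pluripotent genes, the sort genes and, outside the mitochondrial genome, the 15 highest genes with a symbol per length. Other members were named for their role or size after their values were seen. The 54 lists and the members were chosen with earlier results of these data known, and 4 more lists (histone message processing, FOXO-linked, translocon, natural killer lectin receptors) were added after values were seen. Lists are described by counts and medians and were not tested. Listed genes without a symbol in the deposited table were not matched, which does not show that the cells lacked them. Alternatives were other scaling factors, filters, a length offset, a replicate block, DESeq2 1.42.0, size thresholds and leaving out each library. No human promoter or protein sequences were used here. The mouse libraries were not used. Results for some genes are not reported here.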

Additional observations from a re-analysis of the deposited data

How the results depend on the processing

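The number of genes called, 10631, lay between 8931 (DESeq2) and 10890 (upper-quartile factors) over scaling, filter and tool, and between 9820 and 10079 when 1 library was left out. Testing against a change of 1.2-fold left 5686. The number called with at least a 2-fold change, 1450, was 883 when each library had to hold at least 10 counts, 3989 with a 1.5-fold limit, and 1534 to 1643 when 1 library was left out. The share of calls that were higher was 48.0%, 57.4% with upper-quartile factors and 43.7% with total counts, while no scaling moved the median of all genes by over 0.1. DDX21 ranged from -2.81 to -2.71, and from -2.79 to -2.77 when 1 library was left out.

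The replicate numbers do not pair the libraries: same-numbered libraries had deviations from their group means correlated at -0.028 to -0.00032. With the replicate number as a block in the fit, 10601 genes were called, 1455 of them with at least a 2-fold change, DDX21 stood at -2.78, and AHR and KLF1 became calls. No other named gene changed its call with the block.

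Of 262 genes named, 22 had a call that was lost or gained, or a direction that changed, under some alternative. Directions changed for genes not called with all libraries: with upper-quartile factors CDK4 (0.057), CDK9 (0.044), DPPA4 (0.037), IFITM2 (0.0028), ORC3 (0.00045), ORC4 (0.047) and PECAM1 (0.058), with the gene-length offset DPPA4 (0.0018), FBL (-0.021), ORC4 (0.042) and PECAM1 (0.053), and with total counts FBL (-0.0095) and HDC (-0.013). With 1 library left out the value crossed 0 for CDK4 (-0.032 to 0.0093), CDK9 (-0.080 to 0.011), DPPA4 (-0.068 to 0.019), FBL (-0.011 to 0.039), HBB (-0.22 to 0.16), ORC4 (-0.060 to 0.029), PECAM1 (-0.031 to 0.011) and TRIM22 (-0.016 to 0.062). List medians near 0 changed sign for heme and iron genes (0.0049) and the proteasome (0.0092) with upper-quartile factors, for stem and progenitor surface genes with total counts (-0.0080) and the 10-count filter (-0.021), for 7SK and P-TEFb genes with total counts (-0.023) and with 1 library left out (-0.018 to 0.029), for the MYC and MAX network (0.0035) with total counts (-0.026), no filter (-0.0026) and 1 library left out (-0.013 to 0.016), and for megakaryocyte genes without shNC replicate 2 (0.035), where the median was -0.15 with all libraries and ran from -0.17 to 0.035 with 1 left out.

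Other medians moved by over 1.5 times. With upper-quartile factors those of lymphoid (-0.13), cell cycle regulator (-0.13), aminoacyl-tRNA synthetase (-0.13), sterol synthesis (-0.12), glycolysis (-0.11), megakaryocyte (-0.081), AP-1 (-0.064), translation factor (-0.046), NF-kB feedback (-0.044), mitochondrial ribosomal protein (-0.039) and KLF (-0.0098) genes were nearer 0, and those of translocon (0.19), dendritic cell (0.19), respiratory chain (0.18), nucleic acid sensor (0.13), stromal (0.13), surface (0.091), 7SK and P-TEFb (0.076) and MYC and MAX (0.073) genes farther from it. With the length offset those of the mitochondrial genome (0.25), BCL2 family (0.062) and heme and iron (-0.020) were nearer 0 and those of sensor (0.12), stromal (0.12) and surface (0.083) genes farther. With the 10-count filter the lymphoid median was -0.38 and that of lectin receptors 0.62. With 1 library left out this held for the BCL2 family without shNC replicate 3 (0.082), KLF genes without shDDX21 replicate 2 (-0.028), NF-kB feedback without shDDX21 replicate 1 (-0.056), megakaryocyte genes without it (-0.032), mitochondrial ribosomal proteins without shNC replicate 1 (-0.067) or shDDX21 replicate 3 (-0.061), surface genes without the latter (0.0082), heme and iron without shNC replicate 1 (-0.043), and stromal genes (0.0051 to 0.092). The causes were not tested. Counting noise limits genes under a few CPM, and each SE covers only the spread between these libraries.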

Other observations

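Genes that respond to FOXO factors, which act when growth factor signalling is low, were gathered into a list after values had been seen. Of 23 tested, 15 were higher and 5 lower (median 0.52), against 27.5% and 34.8% of tested genes with a symbol. TSC22D3, also induced by glucocorticoids, stood at 42.3, 43.3 and 41.9 CPM in shNC and 119, 126 and 122 CPM in shDDX21, and PIK3IP1, an inhibitor of PI3 kinase, at 20.5, 19.5 and 17.7 and 53.7, 52.1 and 49.9 CPM. The knockdown libraries were all above the controls. IRS2, TXNIP, SESN3 and FOXO1 rose by 1.10, 0.82, 1.05 and 0.73. CITED2 and IL7R, of the same list, fell (-1.06 and -2.32). Since the list was drawn up with values in view, its count is a description only.

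Among noncoding RNA, NEAT1, the scaffold of nuclear paraspeckles, stood at 2873, 2821 and 3296 CPM in shNC and 5790.4, 5607 and 5599 CPM in shDDX21 (0.92), with no overlap. Of 185 genes tested with a LINC symbol 73 were higher and 24 lower (median 0.29), and of 419 antisense genes 144 were higher and 28 lower (median 0.24). Without a stated strand setting, reads of an antisense gene and its partner cannot be told apart. The 5305 tested genes that the deposited table gives no symbol had 1011 higher and 340 lower (median 0.16), whereas 490 zinc finger genes with a ZNF symbol had 125 higher and 148 lower (median -0.027).

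Receptor genes of the natural killer lectin family were also gathered after values were seen. Of 5 tested, 4 rose: KLRC4 from 2.76 to 7.96 CPM, KLRC2 from 0.295 to 1.73, KLRC3 from 0.395 to 1.22 and KLRD1 from 0.417 to 0.886. KLRD1 was not called in 6 alternatives, DESeq2 (adjusted p 0.11) among them, and KLRG1 was not called (-0.32). The KLRC genes are close copies of each other and KLRC2, KLRC3 and KLRD1 were scarce, so their separate values are uncertain.

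Several genes changed more than the rest of their family, as a description without a test of the family. MRPL50, PSMA7, RPL17 and SSR1 stood at 35.4%, 48.7%, 50.6% and 21.3% of control. VIM, the intermediate filament gene vimentin, and MAP4, a microtubule-binding protein gene, stood at 31.3% and 33.3%. Among scarcer genes, IRX3 went from 7.57 to 0.535 CPM, FGF23 from 2.94 to 0.185 CPM and PCSK2 from 0.177 to 2.11 CPM.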
